A study of Mus musculus with 13 samples.

Results

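In mouse fat, 10 genes that mark macrophages or their activation state were followed: Adgre1, Cd68, Csf1r and Ms4a7, which identify macrophages, and Itgax, Nos2, Mrc1, Arg1, Retnla and Mgl2, which are read as signs of their polarisation. They are 10 of the 18820 genes that had an array probe set (a group of probes read as 1 value) annotated to 1 gene symbol alone. Each of the 10 genes had 1 such probe set, so no choice between probe sets was needed. RNA came from the epididymal fat pad of male mice, a visceral white fat depot beside the testis, and 100 ng of it was read on each of 13 Affymetrix arrays. Wild-type C57Bl/6 mice were set beside P2X7 knockout mice (B6.129P2-P2rx7tm1Gab/J, with 7 generations of backcrossing to B6), in which the gene of a channel opened by extracellular ATP is disrupted throughout the body and not in macrophages alone. Mice were 6 weeks old when they were put on chow with 13% of energy from fat or on a high-fat diet with 60%, stayed on it for 12 weeks and were 18 weeks old at the end. Each wild-type group had 3 arrays, the knockout chow group also had 3, and the knockout high-fat group had 4. Whether an array stands for 1 animal is not stated, and p-values therefore measure only the spread between these samples, which may be technical.

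Adipose tissue holds resident macrophages that take up dying cells, lipid and debris. In obesity, monocytes enter the tissue, become macrophages and gather around dead adipocytes, and many of them carry the integrin CD11c, the product of Itgax. A common scheme sets a classical state, driven by interferon-gamma and bacterial products and read by the nitric oxide synthase Nos2, against an alternative state driven by IL-4 and IL-13 through STAT6. The mannose receptor Mrc1 (CD206), the arginase Arg1, the secreted protein Retnla (Fizz1) and the galactose-binding lectin Mgl2 (CD301b) are the usual readouts of the alternative state in mice. Arg1 and Nos2 compete for the same substrate, arginine. Several of these genes are also used by other cells: Itgax and Mgl2 by dendritic cells, Arg1 by hepatocytes, and Csf1r and Cd68 by most mononuclear phagocytes.

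Promoter windows, from 250 bases before to 50 bases after the annotated start, were taken from RefSeq on build GRCm38.p6 for 6 of the 10 genes (7 windows, since Ms4a7 has 2 starts); those of Adgre1, Csf1r, Nos2 and Arg1 are not shown. Windows were searched on both strands for the core of the macrophage factor PU.1 (GAGGAAG), which 13.6% of 32851 RefSeq promoter windows of that length held. The other cores were the STAT6 element named TTCNNNNGAA (6.95% of windows) and C/EBP (TTGCNNAA, 10.8%). The windows of Retnla, Itgax and Ms4a7 are printed because Retnla was the gene of the 10 that fell most with the diet, while Itgax and Ms4a7 rose most, and each held a match to the STAT6 letters. Capitals mark the matches.
Retnla (chr16:48842359-48842658, plus strand): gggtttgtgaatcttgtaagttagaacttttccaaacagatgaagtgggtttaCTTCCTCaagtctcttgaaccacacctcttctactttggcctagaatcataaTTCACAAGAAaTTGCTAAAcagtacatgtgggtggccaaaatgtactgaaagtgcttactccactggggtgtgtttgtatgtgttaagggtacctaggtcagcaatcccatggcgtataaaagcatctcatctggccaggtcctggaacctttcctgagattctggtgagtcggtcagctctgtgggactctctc
Itgax (chr7:128129300-128129599, plus strand): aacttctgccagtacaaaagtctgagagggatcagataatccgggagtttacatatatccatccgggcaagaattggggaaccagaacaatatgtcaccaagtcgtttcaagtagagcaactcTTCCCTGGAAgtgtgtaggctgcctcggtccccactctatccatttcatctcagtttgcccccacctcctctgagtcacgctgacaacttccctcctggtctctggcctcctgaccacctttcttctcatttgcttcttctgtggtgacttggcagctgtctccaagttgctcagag
Ms4a7 (chr19:11336097-11336396, minus strand, first start): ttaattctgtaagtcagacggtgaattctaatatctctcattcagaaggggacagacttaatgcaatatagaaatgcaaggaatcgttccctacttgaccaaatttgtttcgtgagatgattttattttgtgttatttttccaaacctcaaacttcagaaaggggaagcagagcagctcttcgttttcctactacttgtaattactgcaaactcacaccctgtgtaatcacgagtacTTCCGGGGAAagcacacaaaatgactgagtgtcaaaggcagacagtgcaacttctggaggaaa
In the Retnla window the capitals are, from 5′ to 3′, the PU.1 core on the opposite strand beginning 197 bases before the start, the STAT6 element at 145 bases and the C/EBP core at 134 bases before it. The matches in Itgax and Ms4a7 are the STAT6 element, 127 and 13 bases before the start. Among the windows not printed, Mrc1 held 2 PU.1 cores, Cd68 held 1 C/EBP core, and Mgl2 and the second start of Ms4a7 held no match to any of the 3 cores. A match of letters is a description of the window and not a binding site, and genes that rose and genes that fell shared the STAT6 letters.

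Values are log2 expression values, so a difference of 1 is a doubling, and levels of different genes are not compared because their probes differ. Medians per array over all probe sets lay between 5.72 and 5.88, arrays of 1 group correlated at 0.993 to 0.998 across genes, and diets separated along a first principal component with 74.7% of the variance. Adipocyte markers were high, with a mean over 8 genes of 12.04 to 12.21 on chow and 11.14 to 11.63 on high-fat diet. P2rx7 itself checks nothing about the labels, since it is unknown here whether its probes lie in the disrupted stretch; its genotype difference was -0.16 on chow and -0.47 on high-fat diet, and neither passed the test. A mean over 11 liver genes was 6.54 to 7.52 in the wild-type chow arrays and 5.38 to 5.45 in the knockout chow arrays; on high-fat diet it was 5.09 to 6.56 in wild-type and 4.90 to 5.77 in knockout arrays. These liver values move with diet in wild-type mice and with genotype on chow, and their part in the results was not tested beyond a fit that carried them as a covariate.

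With the high-fat diet, 6 of the 10 genes rose in wild-type mice and 3 fell, and in knockout mice 6 rose and 2 fell. Adgre1, Cd68, Csf1r, Ms4a7, Itgax and Mrc1 rose in both genotypes, Retnla and Mgl2 fell in both, Nos2 fell in wild-type mice and did not pass in knockout mice, and Arg1 did not pass in either. The test was limma, a linear model with variances pooled across genes, and a gene was called where its p, adjusted by Benjamini-Hochberg across 18820 genes, was under 0.05; a plus-minus sign after a log2 difference gives its standard error (SE). Among all genes the same rule called 17.7% higher and 18.1% lower in wild-type mice, and 14.5% higher and 19.7% lower in knockout mice. The median change of the 10 genes was 0.91 in wild-type and 0.80 in knockout mice, beside -0.03 and -0.06 over all genes. Diet groups did not overlap, with the high-fat arrays all higher, for the same 6 genes in each genotype, where 20.8% of all genes did so in wild-type and 17.5% in knockout mice. They did not overlap, with the high-fat arrays all lower, for Nos2, Retnla and Mgl2 in wild-type mice and for Retnla and Mgl2 in knockout mice, beside 22.5% and 25.6% of all genes. In whole tissue, fewer cells of a type and less RNA per cell cannot be told apart.

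**Figure D1:**
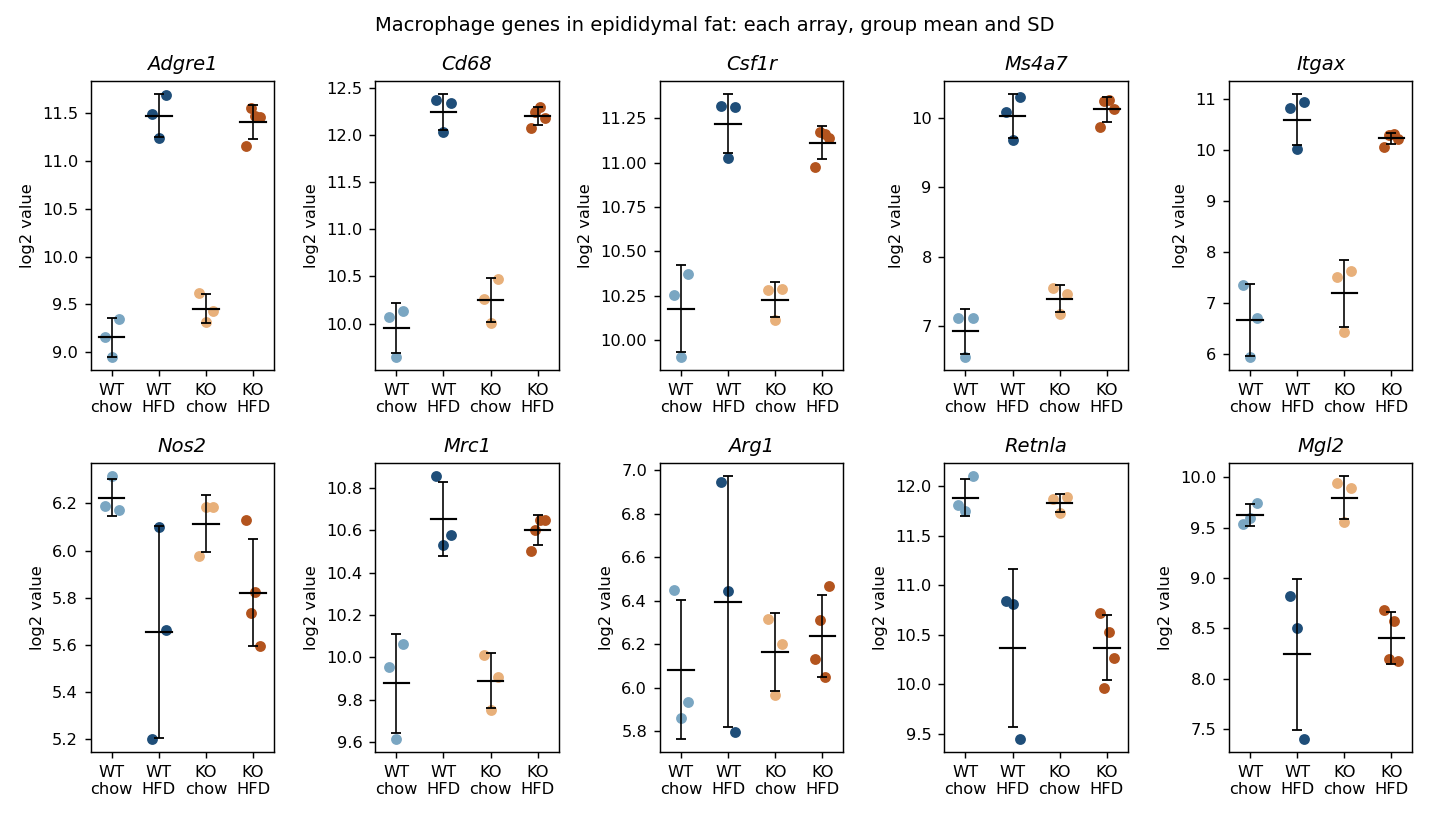
Log2 expression value (vertical axis) of each of the 10 genes in every array, by group (horizontal axis), with points for arrays and bars for the group mean and SD. Adgre1, Cd68, Csf1r, Ms4a7, Itgax and Mrc1 sit higher on high-fat diet (HFD) in both genotypes, Retnla and Mgl2 sit lower, and wild-type (WT) and knockout (KO) arrays overlap within a diet for all but Ms4a7 on chow.

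Adgre1 encodes the surface receptor EMR1, against which a much-used antibody serves to stain mouse macrophages (Entrez 13733). On chow it stood at 9.16, 8.95 and 9.35 in the wild-type arrays and at 9.62, 9.32 and 9.43 in the knockout arrays. On high-fat diet Adgre1 stood at 11.49, 11.24 and 11.69 in wild-type and at 11.15, 11.56, 11.47 and 11.46 in knockout arrays. Every high-fat array lay above every chow array, and the genotypes overlapped within each diet. The rise was 2.32 ± 0.14 in wild-type mice (4.98-fold, adjusted p 6.31e-08) and 1.95 ± 0.13 in knockout mice (3.87-fold, adjusted p 1.88e-07).

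Cd68 (Entrez 12514) encodes a glycoprotein of the late endosome and lysosome that is abundant in phagocytes. Wild-type arrays read 10.07, 9.64 and 10.14 on chow and 12.37, 12.03 and 12.33 on high-fat diet. Knockout arrays read 10.27, 10.01 and 10.47 on chow and 12.07, 12.25, 12.29 and 12.18 on high-fat diet. No chow array reached the lowest high-fat array. Cd68 rose by 2.29 ± 0.14 in wild-type mice (4.90-fold, adjusted p 8.56e-08) and by 1.95 ± 0.13 in knockout mice (3.86-fold, adjusted p 2.33e-07). Its rise was the 136th largest of all genes in wild-type mice, where that of Adgre1 was the 133rd, and the 155th in knockout mice, where that of Adgre1 was the 154th.

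Csf1r (Entrez 12978), the receptor for the growth factors CSF1 and IL-34 on which macrophages depend, rose least of the identity genes. It read 10.26, 9.91 and 10.37 in wild-type chow arrays and 11.32, 11.03 and 11.31 in wild-type high-fat arrays. In knockout mice Csf1r read 10.28, 10.11 and 10.29 on chow and 10.97, 11.17, 11.16 and 11.14 on high-fat diet. The diets did not overlap in either genotype. The rise was 1.04 ± 0.11 in wild-type mice (2.06-fold, adjusted p 8.87e-06) and 0.88 ± 0.11 in knockout mice (1.84-fold, adjusted p 2.69e-05).

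Ms4a7 (Entrez 109225), a membrane-spanning protein of the MS4A family found in macrophages, rose most of the identity genes. Its wild-type values were 7.11, 6.55 and 7.12 on chow and 10.09, 9.68 and 10.30 on high-fat diet. Its knockout values were 7.55, 7.18 and 7.45 on chow and 9.86, 10.24, 10.25 and 10.12 on high-fat diet. The diets lay far apart, and on chow the lowest knockout array lay just above the highest wild-type array. Ms4a7 rose by 3.09 ± 0.18 in wild-type mice (8.54-fold, adjusted p 6.31e-08), the 56th largest rise of all genes, and by 2.72 ± 0.17 in knockout mice (6.61-fold, adjusted p 1.46e-07), the 39th largest.

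Itgax (Entrez 16411), the alpha chain of the integrin CD11c carried by dendritic cells and by macrophages of obese fat, had the largest rise of the 10 genes. Wild-type chow arrays read 7.35, 5.95 and 6.71, and wild-type high-fat arrays 10.82, 10.02 and 10.93. Knockout arrays read 7.51, 6.44 and 7.63 on chow and 10.06, 10.30, 10.31 and 10.21 on high-fat diet. Chow arrays spread widely, with an SD of 0.70 in wild-type and 0.66 in knockout mice, against 0.12 in the knockout high-fat arrays. Even so, the lowest high-fat array stood above the highest chow array. Itgax rose by 3.92 ± 0.35 in wild-type mice (15.1-fold, adjusted p 1.65e-06) and by 3.03 ± 0.33 in knockout mice (8.16-fold, adjusted p 1.13e-05), the 18th and the 24th largest rises of all genes. Of 8 dendritic cell markers, 3 rose and 4 fell in each genotype, and their mean stayed between 6.57 and 6.90 in all arrays. Among them Flt3, the receptor of dendritic cell growth, rose by 0.77 ± 0.13 in wild-type and 0.62 ± 0.12 in knockout mice, and Itgae, which marks a subset of them, fell by 1.22 ± 0.18 and 0.92 ± 0.17. The part of dendritic cells in the Itgax value was not tested.

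Nos2 (Entrez 18126), the inducible nitric oxide synthase of the classical state, did not rise. In wild-type mice it read 6.19, 6.31 and 6.17 on chow and 5.20, 6.10 and 5.66 on high-fat diet. In knockout mice Nos2 read 5.98, 6.18 and 6.18 on chow and 6.13, 5.74, 5.82 and 5.60 on high-fat diet. The wild-type high-fat arrays all lay below the chow arrays, while in knockout mice the diets overlapped. Its fall of 0.57 ± 0.19 in wild-type mice passed (adjusted p 0.0282), and the difference of -0.29 ± 0.17 in knockout mice did not (adjusted p 0.224). The wild-type call for Nos2 was lost without any 1 of the 3 chow arrays (adjusted p 0.0551, 0.0845 and 0.0525) and without high-fat replicate 1 (-0.34, adjusted p 0.13) or 3 (adjusted p 0.0619). The call was also lost with only the wild-type arrays in the fit (adjusted p 0.0893) and with the liver mean as a covariate (-0.22, adjusted p 0.606). The Nos2 probe set was dim, under the median of all values. Endothelial markers also read lower on high-fat diet. Their mean over 5 genes was 9.89 to 10.06 in the 6 chow arrays, 9.18 to 9.78 in wild-type high-fat arrays, where 4 of 5 fell, and 9.51 to 9.82 in knockout high-fat arrays, where 2 of 5 fell. Their part in the Nos2 value was not tested.

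**Figure D2:**
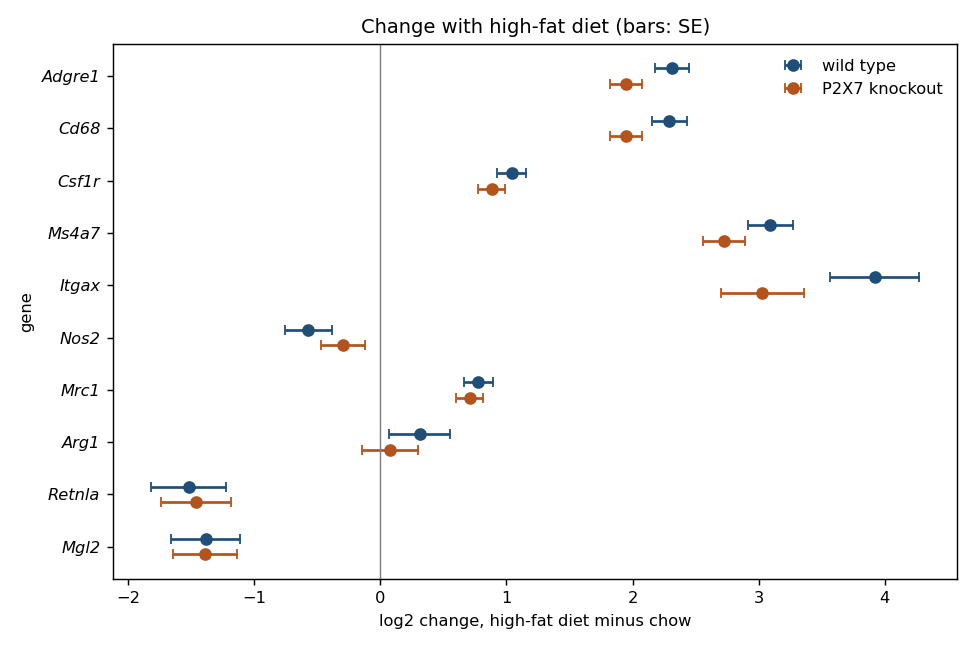
Log2 change with high-fat diet (horizontal axis, high-fat minus chow) of each gene in wild-type and knockout mice, as the limma estimate with bars of 1 SE. Itgax stands at 3.92 and 3.03, Retnla at -1.52 and -1.46, and each gene's estimates have the same sign in both genotypes.

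Mrc1 (Entrez 17533), the mannose receptor, is counted as an alternative marker and moved with the identity genes. Its wild-type values were 9.95, 9.61 and 10.06 on chow and 10.86, 10.53 and 10.58 on high-fat diet. Its knockout values were 10.01, 9.75 and 9.91 on chow and 10.50, 10.60, 10.65 and 10.65 on high-fat diet. The diets did not overlap and the genotypes did. Mrc1 rose by 0.78 ± 0.11 in wild-type mice (1.72-fold, adjusted p 0.000117) and by 0.71 ± 0.11 in knockout mice (1.64-fold, adjusted p 0.000171).

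Retnla (Entrez 57262), a cysteine-rich secreted protein induced by IL-4, moved the other way. On chow it read 11.81, 11.74 and 12.10 in wild-type and 11.87, 11.72 and 11.89 in knockout arrays. On high-fat diet Retnla read 10.84, 10.81 and 9.45 in wild-type and 10.72, 9.96, 10.53 and 10.27 in knockout arrays. All 7 high-fat arrays lay below all 6 chow arrays, and the third wild-type high-fat array lay lowest. Retnla fell by 1.52 ± 0.30 on the log2 scale in wild-type mice (2.87-fold lower, adjusted p 0.00117) and by 1.46 ± 0.28 in knockout mice (2.75-fold lower, adjusted p 0.00108), the 165th and the 108th largest falls of all genes.

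Mgl2 (Entrez 216864), the lectin CD301b of alternatively activated macrophages and a subset of dendritic cells, had nearly the same pattern. Wild-type arrays read 9.54, 9.59 and 9.75 on chow and 8.82, 8.51 and 7.40 on high-fat diet. Knockout arrays read 9.94, 9.55 and 9.89 on chow and 8.68, 8.20, 8.57 and 8.18 on high-fat diet. Again no high-fat array reached a chow array, and the third wild-type high-fat array was lowest. The fall of Mgl2 was 1.38 ± 0.27 in wild-type mice (2.61-fold lower, adjusted p 0.00131) and 1.39 ± 0.26 in knockout mice (2.62-fold lower, adjusted p 0.00087).

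Without wild-type high-fat replicate 3 the wild-type falls were smaller and still passed: Retnla fell by 1.06 (adjusted p 0.000521) and Mgl2 by 0.96 (adjusted p 0.000725). With the liver mean as a covariate the wild-type differences were -1.01 for Retnla (adjusted p 0.0886) and -0.98 for Mgl2 (adjusted p 0.0861). Neither passed, and the SE rose from 0.296 to 0.385 for Retnla and from 0.274 to 0.369 for Mgl2. The liver mean itself moved with diet in wild-type mice, so that fit cannot fully separate the 2. Of the wild-type arrays, high-fat replicate 3 had the lowest liver mean (5.09). Knockout high-fat replicates 3 and 4 had lower ones (4.90 and 4.94), with Retnla at 10.53 and 10.27 and Mgl2 at 8.57 and 8.18. A link between liver mean and these genes was not tested array by array. Eosinophils, which supply IL-4 in fat, were read by 6 markers. Of these, 1 fell in each genotype (Il5ra in wild-type, Siglecf in knockout mice), beside 18.1% and 19.7% of all genes called lower. The marker means of 4.48 to 4.80 lay under the median of all values (6.65) in all arrays, so a change in eosinophils could be missed. The part of eosinophils in the falls was not tested. Clec10a, the neighbouring lectin gene (CD301a) and closest relative of Mgl2, was looked at after its values were seen. Its rise was 0.88 ± 0.19 in wild-type (adjusted p 0.00238) and 0.85 ± 0.18 in knockout mice (adjusted p 0.00224), opposite to Mgl2; probes of such similar genes can share signal.

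Arg1 (Entrez 11846), which turns arginine into ornithine and urea, showed no change that passed. Wild-type arrays read 6.45, 5.86 and 5.94 on chow and 6.95, 6.44 and 5.79 on high-fat diet. Knockout arrays read 6.32, 5.97 and 6.20 on chow and 6.13, 6.31, 6.05 and 6.47 on high-fat diet. The wild-type high-fat arrays held both the highest and the lowest value of all 13, and the diets overlapped in both genotypes. The difference was 0.31 ± 0.24 in wild-type mice (adjusted p 0.356) and 0.08 ± 0.22 in knockout mice (adjusted p 0.824). Without the third wild-type high-fat array the wild-type difference was 0.61 and passed (adjusted p 0.0343). Liver expresses Arg1 strongly; the array with the highest liver mean, wild-type chow replicate 1 at 7.52, read 6.45 for Arg1, and the array with the highest Arg1, wild-type high-fat replicate 1 at 6.95, had a liver mean of 5.63. The first of these was also the highest of the 6 chow arrays for Arg1, and the part of liver RNA in the Arg1 values was not tested. The Arg1 probe set, like that of Nos2, was dim.

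To ask whether the polarisation genes changed by more or by less than a general macrophage gene, each value was set against Adgre1 on the same array, and the change of that log2 ratio with diet was tested by permuting diets within each genotype. Itgax and Ms4a7 gained on Adgre1, Cd68 kept pace with it, and the other 6 genes lost ground. Itgax minus Adgre1 lay between -3.00 and -1.79 on chow and between -1.26 and -0.67 on high-fat diet, a mean gain of 1.34 (1.60 in wild-type and 1.08 in knockout mice). Ms4a7 gained 0.78. Cd68 minus Adgre1 ranged from 0.64 to 1.04 on chow and from 0.65 to 0.92 on high-fat diet, a change of -0.01 (exact permutation p 0.859).

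Against the same reference Csf1r changed by -1.17 and Mrc1 by -1.39, although both rose in absolute terms. Mrc1 minus Adgre1 lay between 0.39 and 0.79 on chow and between -1.11 and -0.63 on high-fat diet, with no overlap. Arg1 changed by -1.94 and Nos2 by -2.57. The largest losses were those of Mgl2 (-3.52) and Retnla (-3.62), and Retnla minus Adgre1 lay between 2.25 and 2.79 on chow and between -2.24 and -0.43 on high-fat diet. For these 8 genes the exact permutation p, two-sided, was 0.00143, the smallest that the 700 arrangements can give, and 0.00161 after Benjamini-Hochberg adjustment over the 9 genes. A ratio within an array shows unequal change only. Any reference that rose without overlap between the diets, as Adgre1 and Csf1r did, makes a gene that stayed level or fell all but sure to pass. For Nos2, Arg1, Retnla and Mgl2 the permutation p therefore adds little beyond the rise of the reference. The share of all genes that would pass the same test is not given here. The choice of reference sets the size: against Csf1r in place of Adgre1, Cd68 gained 1.16, Mrc1 changed by only -0.22 and Arg1 by -0.77, while Retnla changed by -2.45, and all 9 genes passed.

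**Figure D3:**
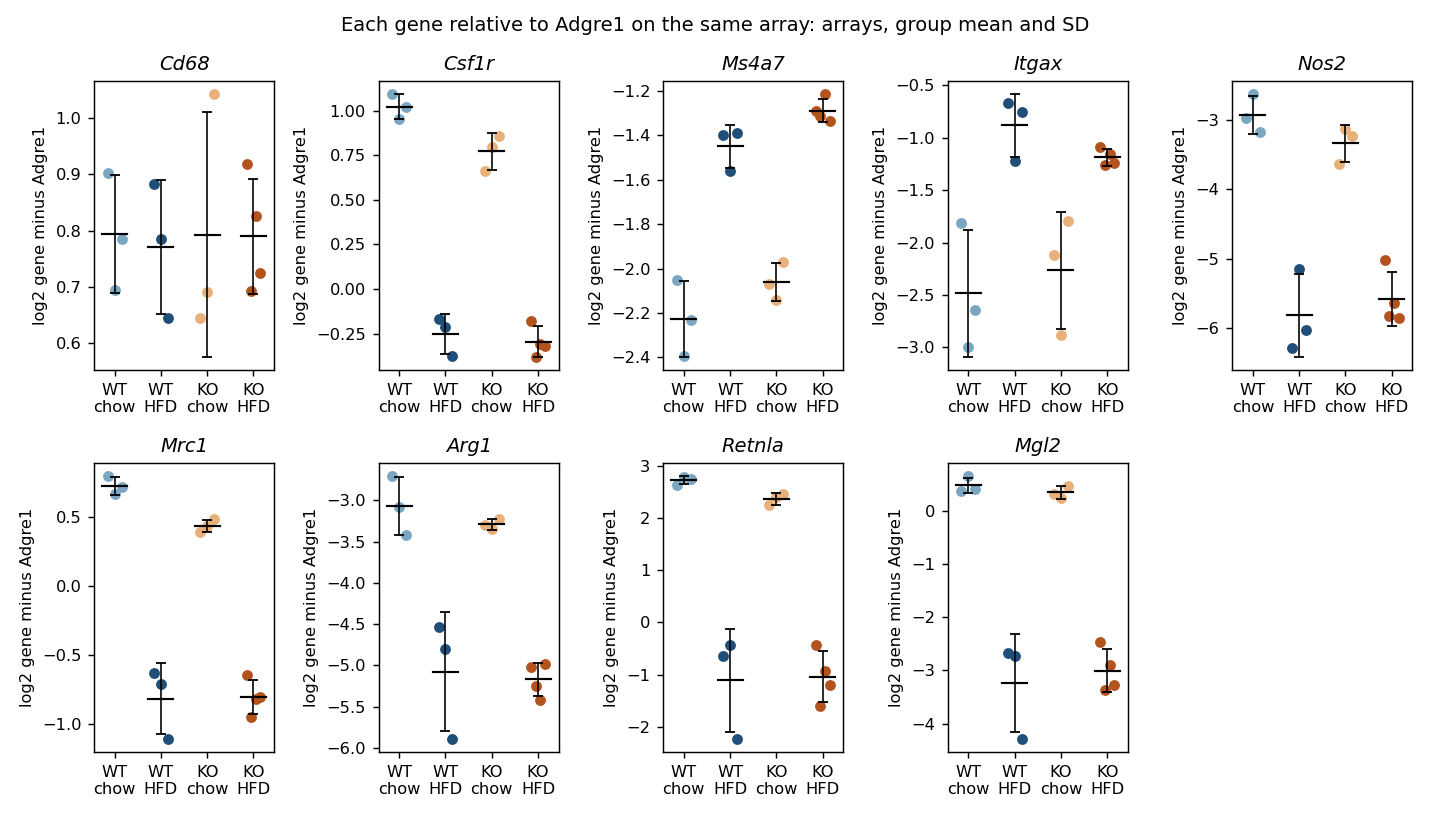
Log2 value of each gene minus that of Adgre1 on the same array (vertical axis; each panel has its own scale) by group, with points for arrays and bars for the group mean and SD. The diets separate in 8 of 9 panels, upward for Itgax and Ms4a7 and downward for the other 6, and overlap for Cd68; only the change with diet can be read, since the level of such a ratio depends on the probes.

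Loss of P2X7 gave no call among the 10 genes on chow, on high-fat diet, over both diets or in the diet-by-genotype interaction (0 of 10 in each by limma; 2, 0, 1 and 0 had an unadjusted p under 0.05). All genes gave few calls in these comparisons too: 0.133% on chow, 0.0425% on high-fat diet, 0.106% over both diets and 0% for the interaction. Of all 18820 genes, 1810, 1394, 1361 and 1829 had an unadjusted p under 0.05, in the same order. Groups did not overlap for 1 gene on chow, Ms4a7, where 14.9% of all genes did so, and for 0 genes on high-fat diet, beside 6.68%. The median genotype difference of the 10 genes was 0.12 on chow and -0.05 on high-fat diet.

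The intervals show what size of difference these arrays leave room for. On chow Ms4a7 was 0.47 higher in knockout arrays (95% interval 0.08 to 0.85, adjusted p 0.423), Adgre1 0.30 (0.01 to 0.59, adjusted p 0.502) and Cd68 0.30 (adjusted p 0.521), none of them past the threshold. The Itgax interval was the widest of the 10 on both diets, 0.52 on chow (-0.24 to 1.28, adjusted p 0.665) and -0.37 on high-fat diet (-1.08 to 0.34, adjusted p 0.854). Single arrays moved these Itgax values: on chow the difference was 0.16 without wild-type replicate 2 and 0.90 without knockout replicate 2, and on high-fat diet it was -0.20 without wild-type replicate 3 and -0.65 without wild-type replicate 2. Without wild-type chow replicate 2, Ms4a7 differed by 0.28, Adgre1 by 0.20 and Cd68 by 0.15. With the liver mean as a covariate the chow difference was 0.05 ± 0.26 for Ms4a7, -0.09 ± 0.18 for Adgre1, 0.07 ± 0.22 for Cd68 and 0.24 ± 0.59 for Itgax. On chow the liver mean did not overlap between the genotypes, so that fit can hardly tell liver mean and genotype apart. Over both diets Ms4a7 differed by 0.28 ± 0.12 (adjusted p 0.664), and by 0.0045 with that covariate.

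The diet response was tested for a difference between genotypes directly. For Itgax the knockout response minus the wild-type response was -0.89 ± 0.48 (95% interval -1.93 to 0.15, adjusted p 0.57). The same quantity was -0.37 ± 0.18 for Adgre1 (adjusted p 0.547), -0.34 ± 0.19 for Cd68 (adjusted p 0.575) and -0.37 ± 0.25 for Ms4a7 (adjusted p 0.648). Without wild-type chow replicate 2 the value was -0.53 for Itgax, -0.19 for Cd68 and -0.18 for Ms4a7, and leaving out knockout chow replicate 2 gave -1.27 for Itgax. Without wild-type high-fat replicate 2 the value was further from 0: -0.48 for Adgre1, -0.45 for Cd68, -0.54 for Ms4a7 and -1.18 for Itgax. With the liver mean as a covariate it was -0.10 for Adgre1, -0.19 for Cd68, -0.09 for Ms4a7 and -0.70 for Itgax. None passed, and the median over the 10 genes was -0.20, beside -0.03 over all genes. A response to diet called in 1 genotype and not in the other, as for Nos2, was therefore not shown to differ between them.

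**Figure D4:**
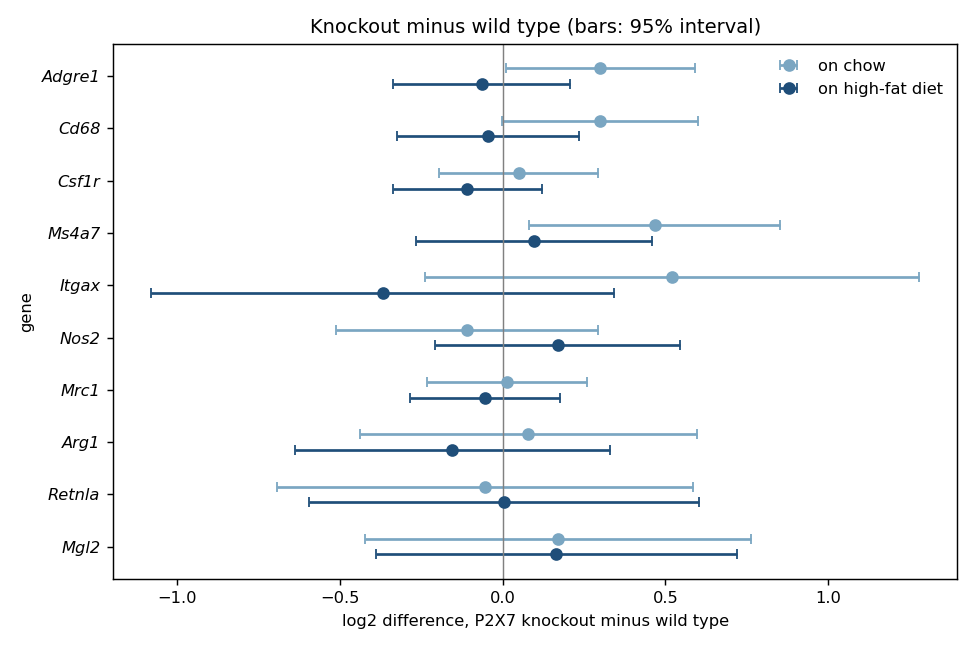
Log2 difference between knockout and wild-type mice (horizontal axis) of each gene on chow and on high-fat diet, as the limma estimate with its 95% interval, not adjusted for the number of genes. On chow the intervals of Adgre1 and Ms4a7 lie just above 0, all others include 0, and no difference passed over all genes.

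Once the group means were taken out, the 13 arrays still varied, and the identity genes varied together. These correlations are descriptions over the same arrays, which share 1 normalisation. The 6 pairs among Adgre1, Cd68, Csf1r and Ms4a7 had r between 0.735 and 0.945, and with these 4 genes Itgax correlated at 0.65 to 0.887 and Mrc1 at 0.659 to 0.872. Nos2 ran against them (-0.644 to -0.524), and Arg1 had r of -0.0404 to 0.237 with them, or 0.481 to 0.633 without wild-type high-fat replicate 3. Retnla and Mgl2 correlated with each other at 0.951 (0.751 over the 6 chow arrays and 0.966 over the 7 high-fat arrays), and at 0.802 without the third wild-type high-fat array. With the 4 identity genes Retnla had r of -0.479 to -0.0732 and Mgl2 of -0.375 to 0.0246; without that array the ranges were -0.167 to 0.185 and 0.0659 to 0.379. These pooled values hide a difference in sign between the diets: over the 6 chow arrays Retnla had r of 0.714 to 0.849 and Mgl2 of 0.538 to 0.703 with the identity genes, and over the 7 high-fat arrays -0.794 to -0.425 and -0.671 to -0.243. Arg1 had r of 0.38 to 0.69 over the chow arrays and -0.28 to 0.0288 over the high-fat arrays. Mrc1 kept its sign, with r of 0.862 to 0.977 over the chow arrays and 0.374 to 0.709 over the high-fat arrays. Over both diets without wild-type high-fat replicate 3, Mrc1 had r of 0.87 to 0.968. The high-fat ranges include wild-type replicate 3, and how far the signs rest on that array is not shown here.

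Predicted genes, clone names, small RNAs, olfactory and vomeronasal receptors and antigen receptor segments were left out of a search for likeness. Among the rest of the 18820, the genes whose deviations were most like each marker were picked. For Adgre1 they were Tlr7 (r 0.949), an RNA sensor of the endosome, B4galt6 (0.943) and Fyb (0.941), an adaptor of immune cells. For Cd68 they were Fcer1g (0.978), the shared Fc receptor gamma chain, Igsf6 (0.955) and Lipa (0.953), the lysosomal acid lipase. Csf1r went with Cd84 (0.969), Rab7b (0.968) and Laptm5 (0.965), and Ms4a7 with Tlr7 (0.977), Runx1 (0.964) and Rgs18 (0.963). Itgax went with Lat2 (0.989), Adam8 (0.961), a membrane protease, and Tnip3 (0.961). Like the genes named for the identity genes, all of these also rose with the diet in both genotypes. Mrc1 went with Sh2d1b1 (0.95), Exoc6b (0.949) and Slamf7 (0.939), of which Exoc6b did not change with the diet past the threshold in either genotype. For Nos2 the 3 genes were Sox18 (0.973), a transcription factor of endothelium, Slc24a3 (0.972) and Dysf (0.969), none of them a macrophage marker. Arg1 went with Hmx1 (0.95), Foxd1 (0.942) and Fat2 (0.94), none of which changed with the diet past the threshold. The highest r values picked from so many genes over so few arrays can be large by chance alone. The r expected by chance was not computed, so no r in this search shows a link by itself. Among the genes searched, Retnla and Mgl2 were each other's closest, followed by Usp26 (0.929) for Retnla and Sprr1a (0.93) for Mgl2. The likeness of Usp26 rests on the high-fat arrays, with r of 0.103 over chow and 0.995 over high-fat arrays, among which wild-type replicate 3 was lowest for Retnla.

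Other genes of the same pathways were counted too, against the all-gene shares of 17.7% higher and 18.1% lower in wild-type and 14.5% and 19.7% in knockout mice. Of 11 measured ligands, receptors and factors around colony-stimulating factor signalling, 7 rose and 2 fell in wild-type mice and 6 rose and 3 fell in knockout mice. The rises included Spi1, which encodes PU.1 (2.27 ± 0.15 in wild-type and 1.79 ± 0.14 in knockout mice), Irf8, a transcription factor of the myeloid line (1.95 ± 0.12 and 1.64 ± 0.12), and Tyrobp, a signalling adaptor (1.76 ± 0.13 and 1.54 ± 0.12). The 2 ligands of Csf1r, named here after their values were seen, went the other way: Csf1 fell by 0.35 ± 0.10 and 0.37 ± 0.10, and Il34 by 0.46 ± 0.11 and 0.65 ± 0.10. Of 16 further identity genes 13 rose in each genotype, while 1 fell in wild-type mice (Cd163) and 2 in knockout mice (Cd163 and Mertk). The rises included Lair1 (2.92 ± 0.18 and 2.30 ± 0.17), an inhibitory collagen receptor, C5ar1 (2.36 ± 0.14 and 1.81 ± 0.13), the complement C5a receptor, and Siglec1 (1.81 ± 0.11 and 1.49 ± 0.10), a sialic acid receptor. Cd163, the haemoglobin scavenger receptor and also chosen after its values were seen, fell by 0.90 ± 0.18 and 1.07 ± 0.17, and Mertk, a receptor for dying cells, fell by 0.31 ± 0.10 in knockout mice. In a list of macrophage markers the measured gene not already counted was Lyz1, a lysozyme. It fell by 2.00 ± 0.19 in wild-type mice (adjusted p 2.15e-06) and fell by 1.92 ± 0.17 in knockout mice (adjusted p 2.29e-06). Lyz2, a related lysozyme counted among the further identity genes and named after its values were seen, rose by 0.45 ± 0.08 and 0.40 ± 0.07. Probes of such similar genes can share signal.

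Most genes of tissue-resident macrophages fell, as Retnla and Mgl2 did. Of 10, 8 fell and 1 rose in wild-type mice (median -0.80) and 7 fell and 1 rose in knockout mice (median -0.67). Ccl24, a chemokine that attracts eosinophils, fell by 1.88 ± 0.22 and 1.83 ± 0.21, and Timd4, a receptor for dying cells, by 1.49 ± 0.20 and 1.23 ± 0.18. Folr2, a folate receptor, was the 1 that rose (0.93 ± 0.13 and 0.87 ± 0.12). These lists were chosen with earlier results of these data known, so their counts are descriptions.

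Neither polarisation list moved as 1 block. Of 15 alternative activation genes besides the 4 markers, 7 rose and 3 fell in wild-type mice and 5 rose and 3 fell in knockout mice, with medians of 0.24 and -0.07. The chemokine Ccl17 fell by 2.44 ± 0.19 in wild-type mice and fell by 2.49 ± 0.18 in knockout mice, while the transcription factor Egr2 rose by 3.05 ± 0.24 and 2.35 ± 0.22 and the anti-inflammatory cytokine Il10 by 1.24 ± 0.17 and 1.26 ± 0.16. Of 15 classical activation genes 4 rose and 2 fell in wild-type mice and 3 rose and 2 fell in knockout mice, counts near what the all-gene shares give. Tnf rose by 2.15 ± 0.19 and 1.19 ± 0.18, Irf5, a factor of the inflammatory state, by 1.64 ± 0.21 and 1.33 ± 0.19, and Cd40, a receptor for T cell help, by 0.78 ± 0.12 and 0.82 ± 0.11.

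In the IL-4 and IL-13 pathway, upstream of Retnla and Mgl2, 5 of 9 genes rose in wild-type and 4 in knockout mice, and 0 fell in either. Il4ra and Stat6, among the wild-type rises, are also counted in the alternative activation list. The cytokines Il4, Il13 and Il5 read 3.81, 5.02 and 3.25 on wild-type chow, under the median of all values (6.65), so a fall could hardly be seen. Il13ra2, a decoy receptor, rose by 1.04 ± 0.23 and 1.49 ± 0.22, and Il13ra1, the signalling receptor, by 0.78 ± 0.15 and 0.80 ± 0.14. Il13ra2 was also dim, at 3.35 on chow and 4.39 on high-fat diet in wild-type mice. Stat6 rose by 0.34 ± 0.06 in wild-type mice and differed by 0.06 ± 0.06 in knockout mice (adjusted p 0.497). Of 10 genes around arginine and nitric oxide, the substrate and product of Arg1 and Nos2, 3 rose and 1 fell in wild-type mice and 4 rose in knockout mice. Ddah1, which clears a natural inhibitor of nitric oxide synthases, rose by 1.75 ± 0.20 and 1.93 ± 0.19, and Gch1, which makes their cofactor, by 0.54 ± 0.10 and 0.73 ± 0.09. Slc7a1, an arginine transporter, rose by 0.38 ± 0.10 in wild-type mice and differed by -0.09 ± 0.09 in knockout mice (adjusted p 0.513).

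**Figure D5:**
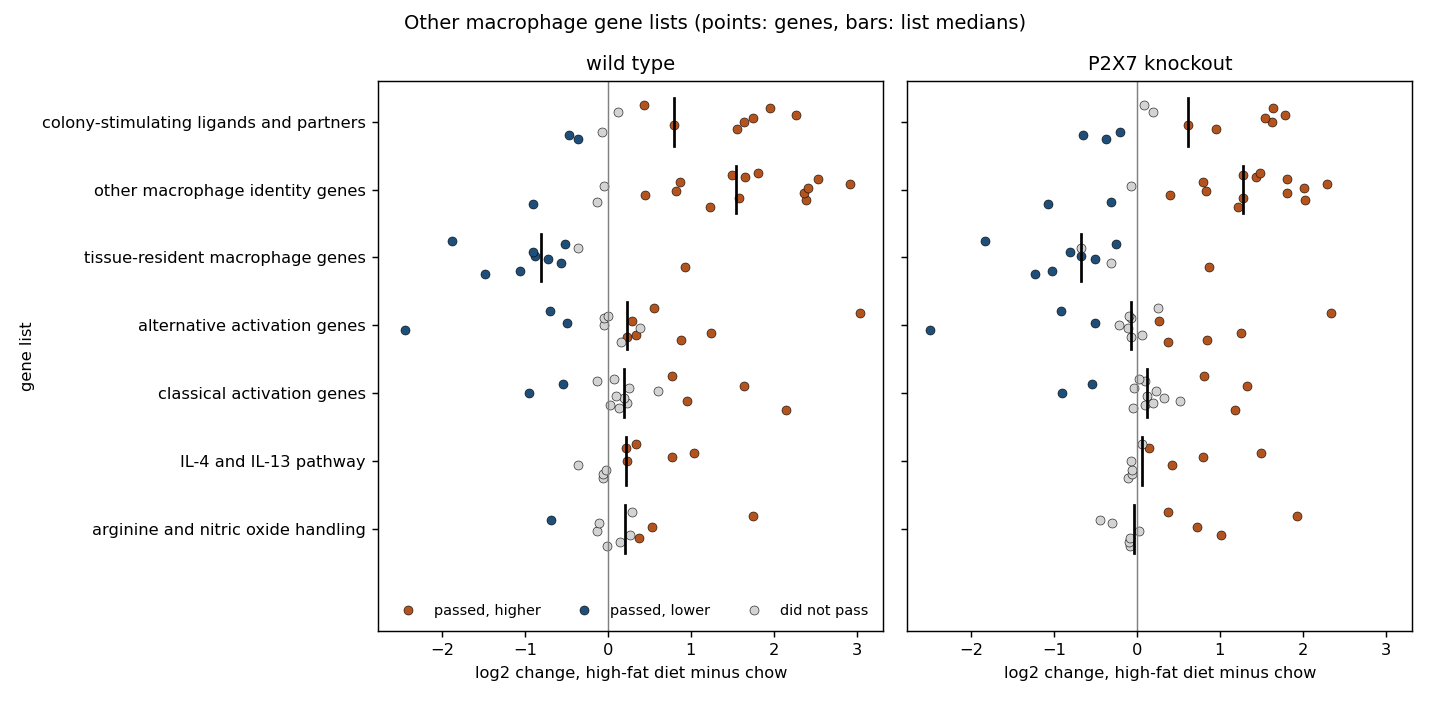
Log2 change with high-fat diet (horizontal axis) of the other measured genes of 7 macrophage lists (vertical axis) in wild-type and knockout mice, with 1 point per gene, coloured where it passed, and a bar at each list's median. The other identity genes lie mostly above 0 (medians 1.54 and 1.28), the tissue-resident genes mostly below (-0.80 and -0.67), and the polarisation lists spread to both sides.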

How the data were processed

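Each deposited value is a log2 signal of a probe set on an array, summarised and normalised by the authors with RMA per the submitters' processing notes; no version or setting of RMA was known here. No further normalisation was applied. Of 35556 probe sets, 21218 had 1 gene symbol in the platform annotation, 1881 several and 12457 none; only the first kind was named and tested, with the highest-mean probe set per gene. Of 18820 genes, 18790 matched RefSeq GRCm38.p6 by Entrez ID, the 10 markers included. Limma 3.58.1 in R 4.3.3 fitted a mean for each of the 4 groups to all 13 arrays, with an intensity trend, and Benjamini-Hochberg adjustment ran over all genes of a contrast. The steps were tested on simulated data. The markers, lists and tests were chosen with earlier results of these data known. Up to 3 genes per list were named by smallest p among those that passed. Csf1, Il34, Cd163, Mertk, Lyz2 and Clec10a lie outside that rule. Cd38, Fpr2, Il1rl1, Il2rg, Jak3, Ass1 and Arg2 of the lists were not analysed here. Neutrophil and T cell markers were also read: 1 of 7 and 0 of 4 rose, and 1 and 0 fell, in each genotype. Figures were drawn with Python 3.11.15 and matplotlib 3.10.9. The number of arrays limits the precision.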

Additional observations from a re-analysis of the deposited data

How the results depend on the processing

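Results were recomputed with other variance models, 2 other scalings, array weights, the mean of all probe sets of a gene, dim genes removed, fewer groups in the model, a replicate block, a liver covariate or another reference gene, and without each array in turn. Of 60 marker differences, 17 were called, and 0 of these changed sign under any alternative. Of the 43 not called, 29 changed sign under at least 1. Nos2, Retnla and Mgl2 in wild-type mice lost their calls with the liver covariate (-0.22, -1.01 and -0.98), leaving 6 markers called, and Nos2 with only the groups compared (-0.57). With the liver covariate, which did not overlap between the genotypes on chow, the chow genotype difference became -0.0924 for Adgre1 and 0.34 for Nos2. Leaving out arrays gave a range of -0.79 to -0.34 for the diet change of Nos2 in wild-type mice (8 of 13 fits called). Fits without a knockout array keep the wild-type estimate as it was. Of the fits without a wild-type array, only that without high-fat replicate 2 kept the Nos2 call. For the diet change of Arg1 the range was 0.04 to 0.61 in wild-type mice and -0.0203 to 0.156 in knockout mice. For genotype on high-fat diet the ranges were -0.18 to 0.0436 for Adgre1, -0.0578 to 0.391 for Nos2 and -0.26 to 0.45 for Mgl2. Cd68 minus Adgre1 ranged from -0.0503 to 0.0495, and was 1.16 with Csf1r as the reference. The causes were not tested. The filter on dim genes left out Nos2 and Arg1, so it gave no value for them. Over all genes, the liver covariate moved the wild-type diet calls from 3327 higher and 3409 lower to 2066 and 1806.

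Over all genes together, replicate numbers did not pair the arrays. Deviations of same-numbered arrays correlated at -0.23 to 0.10, -0.30 to 0.22 and -0.04 to 0.14 for numbers 1, 2 and 3. With the replicate block 9 markers were called for diet in wild-type mice, 8 in knockout mice and 0 in each genotype comparison, as without it. The block lowered the SE of the wild-type diet change from 0.139 to 0.103 for Cd68 and from 0.352 to 0.258 for Itgax. For Retnla it raised that SE from 0.296 to 0.32. Whether same-numbered arrays share a step that moves single markers was not tested. Over all genes the replicate block moved the genotype calls from 25 to 6 on chow, from 8 to 0 on high-fat diet and from 20 to 6 over both diets. On chow the liver covariate, which did not overlap between the genotypes there, left 0.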
